A study of Mus musculus with 19 samples.

Results

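Tagln, which encodes transgelin (SM22), was higher after the step from mouse embryonic stem cells (mESC) to epiblast-like cells (EpiLC) than before it by more than nearly every other gene measured. It is described here with 9 further genes: its paralog Tagln2, the smooth muscle actins Acta2 and Actg2, the calponins Cnn1 and Cnn2, the tropomyosins Tpm1 and Tpm2, the regulatory myosin light chain Myl9, and Srf, which encodes the transcription factor that many of them depend on. These 10 genes, out of 54119 in the deposited table, were taken by name, after Tagln had been picked for the size of its difference between the culture states. That difference is therefore given below as a description with no test. Of the 10, 9 passed the filter on low values (at least 1 TPM in at least 3 libraries) that left 14972 genes for the tests, and Actg2 did not. Tagln, Acta2, Cnn1 and Myl9 passed it through EpiLC libraries alone, since none of them reached 1 TPM in any mESC library.

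The series holds 19 libraries in 6 groups. XX wild-type cells of the LF2 line, XY wild-type cells of the E14 line and Tet3-/- cells of the LF2 line were each measured in both culture states. All mESC grew in N2B27-based medium with LIF plus a GSK3 and a MEK1/2 inhibitor, which together hold cells in naive pluripotency. For EpiLC, LIF was withdrawn and Activin A and FGF5 were given for 5 days. Each wild type is represented by 3 mESC libraries and the mutant by 4, and every genotype by 3 EpiLC libraries (mutants #1, #3 and #4). XX and XY cells also differ in line, so sex chromosomes and line cannot be told apart. The kind of Tet3 allele and the number of mutant clones are not given in the sources used here. Nothing in the labels says that libraries of a group came from separate cultures, so the p-values below measure the spread between these libraries, which may be technical.

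SRF binds a short DNA element called the CArG box and acts with partner proteins. Its MRTF partners (Mrtfa, Mrtfb) are held in the cytoplasm by monomeric actin and enter the nucleus when actin is drawn into filaments, and myocardin (Myocd) is the partner typical of smooth and cardiac muscle. Targets reached through these partners build the contractile and adhesive cytoskeleton: actins, the tropomyosins that wrap actin filaments, calponins and transgelins that bind them, and myosin light chains that set motor activity. Tagln, Acta2 and Cnn1 are widely used as smooth muscle markers, but they also appear outside muscle in cells that spread and build stress fibres.

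RefSeq promoter windows (250 bases before to 50 after the annotated start, GRCm38.p6) were found for 8 of the 10 genes. They were searched on both strands for the CArG box, a pair of C letters, 6 letters that are A or T, and a pair of G letters. A match in every letter lay in 1.63% of all 32851 promoter windows, and a match with at most 1 letter different in 21.1%. Srf held 2 full matches at positions -82 and -62 from its start and another with 1 letter different at -39. Cnn2 held 1 full match at -56, and Myl9 1 full match at -161 and 1 with a letter different at -99. Acta2 held 2 matches with 1 letter different, at -84 and -34, and Tpm1 held 2 such matches, at -221 and -80. Both Acta2 matches and the Tpm1 match at -80 overlapped annotated exons (GENCODE M21), while all other matches lay outside exons. Tagln2, Cnn1 and Tpm2 held no match of either kind in this window. Below are the parts outside annotated exons of the 3 promoters with a full match, and both Acta2 matches with their flanks. All are read 5′ to 3′ on the gene's strand. They show how the elements sit near the starts of genes whose levels differ between the culture states. Capitals mark the matches, which are descriptions of the letters and not measured binding sites.
Srf (chr17:46556176-46556412, minus strand): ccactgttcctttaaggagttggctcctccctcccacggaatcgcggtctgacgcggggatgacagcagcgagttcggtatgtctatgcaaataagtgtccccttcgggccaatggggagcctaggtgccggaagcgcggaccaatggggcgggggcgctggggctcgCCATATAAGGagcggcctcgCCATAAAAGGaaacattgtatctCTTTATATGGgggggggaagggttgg
Cnn2 (chr10:79988350-79988583, plus strand): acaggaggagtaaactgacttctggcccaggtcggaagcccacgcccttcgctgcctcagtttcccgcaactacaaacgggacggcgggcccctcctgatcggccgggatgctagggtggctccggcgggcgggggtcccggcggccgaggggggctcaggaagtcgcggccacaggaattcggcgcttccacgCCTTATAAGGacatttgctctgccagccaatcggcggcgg
Myl9 (chr2:156775214-156775419, plus strand): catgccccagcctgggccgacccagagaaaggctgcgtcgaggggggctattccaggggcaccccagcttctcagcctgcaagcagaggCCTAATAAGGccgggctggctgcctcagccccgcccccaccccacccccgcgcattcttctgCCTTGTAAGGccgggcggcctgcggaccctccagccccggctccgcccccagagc
Acta2, farther site (chr19:34255438-34255467, minus strand): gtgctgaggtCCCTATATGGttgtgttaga
Acta2, nearer site (chr19:34255388-34255417, minus strand): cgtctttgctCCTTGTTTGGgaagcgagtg

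Values are TPM (transcript abundance as a share of each library's total) summed over each gene's transcripts, a unit that corrects for transcript length but keeps no sequencing depth, so depth is unknown. Tests used log2(TPM + 1), and a log2 difference is on that scale, which understates changes of genes near 0. TPM is also a share: the abundant non-coding RNA Rn7s1 took up between 23.5% and 43.7% of a library's total. The median log2 difference over all tested genes was 0.14, 0.54 and -0.13 from mESC to EpiLC in XX, XY and Tet3-/-. It was -0.19 in mESC and -0.59 in EpiLC for XX minus XY, and 0.19 and -0.07 for Tet3-/- minus XX. For the difference between the steps it was -0.4 for XX minus XY and -0.28 for Tet3-/- minus XX. Each was within 0.05 of 0 after median-of-ratios scaling, so scaled values stand beside the unscaled ones where the call differs. Tet3 itself overlapped between Tet3-/- and XX in mESC (0.532 to 0.916 against 0.536 to 1.06 TPM) and in EpiLC (0.693 to 1.42 against 1.21 to 1.90 TPM), and a whole-gene sum does not check an allele that leaves a transcript. Summed mesoderm markers (T, Eomes, Mixl1, Tbx6, Mesp1) reached 125 TPM in mutant #3 EpiLC, against at most 3.86 TPM in XX and 33.0 TPM in XY EpiLC, so mutant #3 stood apart. The members called for Tet3-/- minus XX in EpiLC and for the step are given with and without it. Counts and values of other gene lists in Tet3-/- EpiLC are given with it only.

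**Figure D1:**
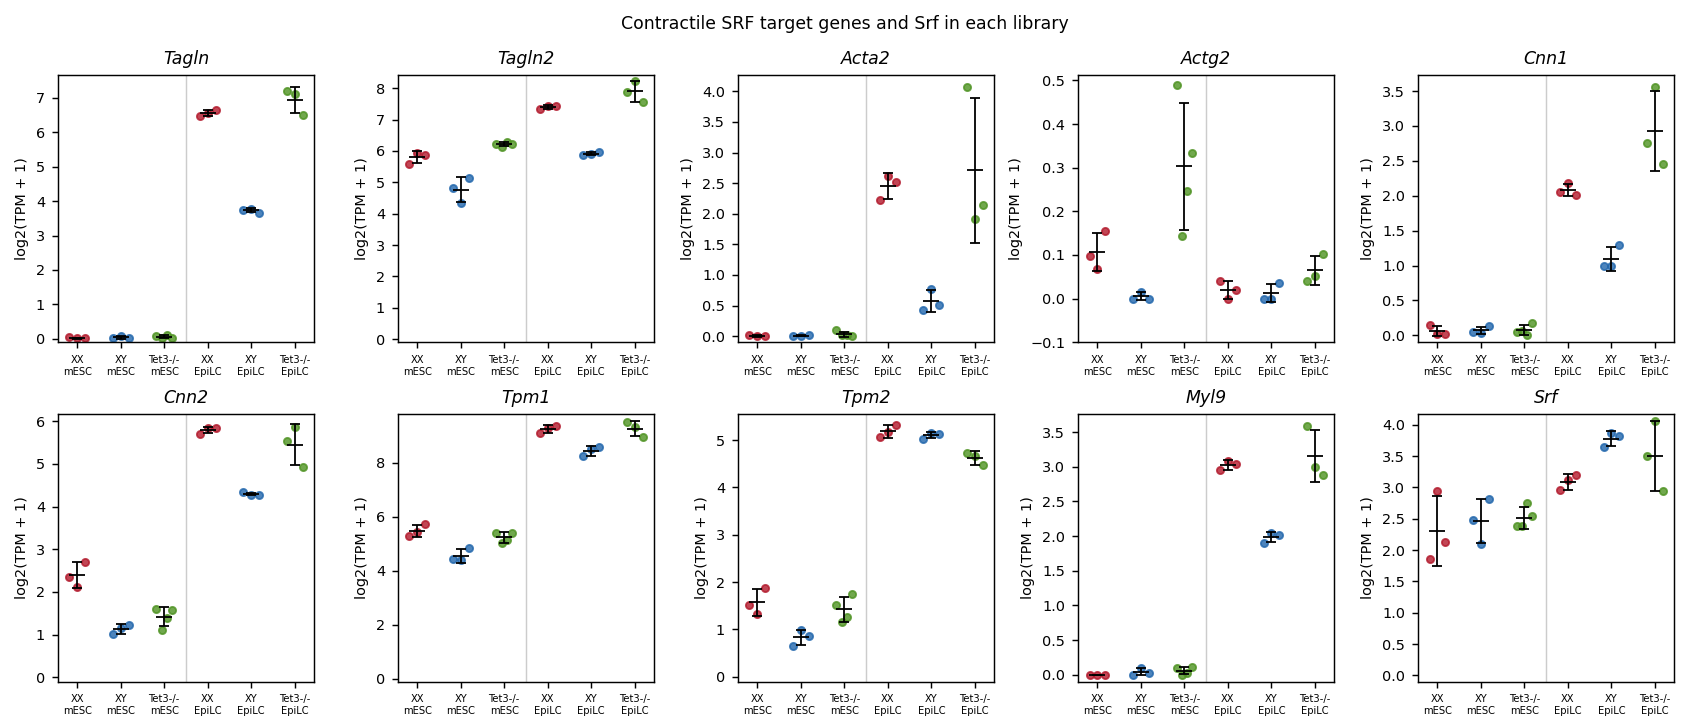
Level of each of the 10 genes in every library as log2(TPM + 1), by group. Points are libraries, the short bar and whiskers are the group mean ± SD (n = 3, or 4 for Tet3-/- mESC), and the vertical axis differs between panels. Tagln, Acta2, Cnn1 and Myl9 lie near 0 in all mESC libraries, and Actg2 lies below 0.5 on this scale in all 19.

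Transgelin RNA was close to absent in mESC and had the third highest mean TPM of the 10 genes in XX and Tet3-/- EpiLC, after Tpm1 and Tagln2. Tagln (chromosome 9, 45929619 to 45936058, minus strand, GRCm38) was 0.0280, 0.0116 and 0.00892 TPM in the 3 XX mESC libraries, and no mESC library of any genotype exceeded 0.0825 TPM. It was 88.2, 92.9 and 98.6 TPM in XX EpiLC, 12.5, 12.7 and 11.7 TPM in XY EpiLC, and 145, 137 and 89.5 TPM in mutants #1, #3 and #4. In EpiLC the order of the means was therefore XY (12.3 ± 0.540 TPM, SD, n = 3), XX (93.3 ± 5.20 TPM, SD, n = 3) and Tet3-/- (124 ± 30.1 TPM, SD, n = 3), with no overlap between XY and the others and an overlap between XX and Tet3-/-. The difference between culture states was 6.53 ± 0.18 (fit estimate ± SE, log2(TPM + 1)) in XX, 6.87 ± 0.17 in Tet3-/- and 3.69 ± 0.18 in XY. It ranked 2 of 14972 genes in XX, between AY036118 (10.99) and Car4 (5.87), and 2 in Tet3-/-, between Car4 (6.91) and Krt19 (5.38). In XY it ranked 76, between Chst15 (3.72) and Nes (3.67). The transcript Tagln-201 held 94.0%, 93.9% and 90.7% of Tagln TPM in XX, XY and Tet3-/- EpiLC. In these bulk libraries more cells with a transcript and more transcript per cell cannot be told apart.

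All 9 genes that passed the filter were higher in every EpiLC library than in every mESC library of the same genotype. That separation was also found for 29.2% of all tested genes in XX, 44.9% in XY and 14.9% in Tet3-/-, and since the members were chosen on this contrast nothing is read from it. On the log2(TPM + 1) scale the sizes ran from 0.57 for Acta2 in XY to 6.87 for Tagln in Tet3-/-.

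Tagln2, the transgelin paralog found in many cell types, was already abundant in mESC. It was 46.6, 59.8 and 57.9 TPM in XX mESC, 27.0, 19.4 and 34.2 TPM in XY mESC, and from 69.6 to 77.0 TPM in the 4 mutants. In EpiLC it was 159, 171 and 171 TPM in XX, 57.3, 59.0 and 61.2 TPM in XY, and 237, 302 and 187 TPM in mutants #1, #3 and #4. In EpiLC the 3 genotypes did not overlap, with XY lowest and Tet3-/- highest. The difference between states was 1.60 ± 0.22, 1.15 ± 0.22 and 1.68 ± 0.20 log2 units in XX, XY and Tet3-/-, far below that of Tagln.

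The smooth muscle actins differed from each other. Acta2, alpha smooth muscle actin (chromosome 19, 34241090 to 34255590), was listed at 0 in 5 of the 10 mESC libraries and reached at most 0.0676 TPM in the others. It was 3.66, 5.13 and 4.75 TPM in XX EpiLC, 0.342, 0.708 and 0.430 TPM in XY EpiLC, and 15.8, 2.78 and 3.40 TPM in mutants #1, #3 and #4. Mutant #1 alone was above every XX library, while #3 and #4 were below all of them. The difference between states was 2.45 ± 0.35 in XX, 2.68 ± 0.33 in Tet3-/- and 0.57 ± 0.35 in XY, where the median over all genes was 0.54. The XY value is small because log2(TPM + 1) compresses levels below 1 TPM. The XY means were 0.00360 TPM in mESC and 0.493 TPM in EpiLC, a ratio of 137 over a value near 0. Without mutant #1 in EpiLC the Tet3-/- value was 2.00, and without #3 it was 3.07.
Actg2, gamma smooth muscle actin (chromosome 6, 83512905 to 83536265), reached 1 TPM in no library, and its highest value was 0.403 TPM, in mutant #1 mESC. It did not share the direction of the other 9 in the LF2 line: the mESC libraries were at 0.0488 to 0.114 TPM in XX and 0.104 to 0.403 TPM in Tet3-/-, and the EpiLC libraries at 0 to 0.0286 and 0.0286 to 0.0727 TPM. Actg2 and Tet3 are neighbours on chromosome 6, with 53820 bases between their annotated ends. At these levels no test was made, and whether the position matters was not tested.

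The calponins, which bind actin and tropomyosin and damp myosin motor activity, showed the pattern of a muscle form and a widely expressed form. Cnn1 was at most 0.129 TPM in any mESC library. It was 3.15, 3.54 and 3.03 TPM in XX EpiLC, 0.994, 0.992 and 1.45 TPM in XY EpiLC, and 5.78, 10.8 and 4.48 TPM in mutants #1, #3 and #4. Every mutant was above every XX library, and every XX above every XY library. Cnn2 was present before the transition, at 4.10, 3.36 and 5.55 TPM in XX mESC, 1.01, 1.23 and 1.34 TPM in XY mESC, and 2.02, 1.15, 1.63 and 2.00 TPM in mutants #1 to #4. In EpiLC it was 51.4, 56.4 and 56.2 TPM in XX, 19.2, 18.4 and 18.4 TPM in XY, and 45.7, 57.6 and 29.4 TPM in mutants #1, #3 and #4. The differences between states in XX, XY and Tet3-/- were 2.02 ± 0.20, 1.02 ± 0.20 and 2.85 ± 0.19 for Cnn1, and 3.40 ± 0.23, 3.17 ± 0.23 and 4.03 ± 0.21 for Cnn2.

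Myl9 encodes a light chain whose phosphorylation switches on smooth muscle and non-muscle myosin. It was listed at 0 in all 3 XX mESC libraries, and elsewhere in mESC it was at most 0.0834 TPM. It was 6.73, 7.51 and 7.18 TPM in XX EpiLC, 2.74, 3.11 and 3.03 TPM in XY EpiLC, and 11.0, 6.98 and 6.36 TPM in mutants #1, #3 and #4. XY was the lowest group without overlap, and XX lay within the range of the mutants. The differences of log2(TPM + 1) were 3.02 ± 0.16, 1.94 ± 0.16 and 3.09 ± 0.15 in XX, XY and Tet3-/-. The XX value depends on the pseudocount, since its mESC libraries are at 0.

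Of the tropomyosins, Tpm1 was the most abundant of these RNAs in EpiLC. Tpm1 was 38.4, 42.4 and 52.4 TPM in XX mESC, 20.6, 20.0 and 28.1 TPM in XY mESC, and 31.5 to 41.8 TPM in the mutants. In EpiLC it was 547, 622 and 662 TPM in XX, 303, 368 and 382 TPM in XY, and 735, 646 and 499 TPM in mutants #1, #3 and #4. Tpm1 thus had the highest TPM of the 10 genes in every EpiLC group, with means of 610.5, 351 and 627 TPM. Tpm2, which encodes beta-tropomyosin, was 1.5 to 2.68 TPM in XX mESC, 0.577 to 0.982 TPM in XY mESC and 1.24 to 2.35 TPM in the mutants. In EpiLC it was 32.2, 35.1 and 38.9 TPM in XX, 31.6, 34.2 and 34.1 TPM in XY, and 25.6, 24.4 and 21.1 TPM in mutants #1, #3 and #4. XX and XY overlapped, and every mutant was below every wild-type library. The differences between states in XX, XY and Tet3-/- were 3.76 ± 0.22, 3.89 ± 0.22 and 4.03 ± 0.20 for Tpm1, and 3.61 ± 0.20, 4.27 ± 0.20 and 3.20 ± 0.18 for Tpm2. Unlike the transgelins, the calponins, Acta2 and Myl9, neither tropomyosin had its lowest value in XY on the unscaled scale. After scaling, Tpm1 did, at 3.16 against 3.50 in XX and 4.17 in Tet3-/-. The order of XX and XY for Cnn2 depended on the pseudocount: with 0.1 the XX minus XY step was -0.21, which was not called.

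Srf RNA was present in both states, and in XX and Tet3-/- it had the smallest difference of the 9 genes. In XY, Acta2, Cnn1 and Tagln2 had smaller ones on log2(TPM + 1), and Acta2 and Tagln2 after scaling. That order rests on the compression of values near 0 for Acta2 and Cnn1. Their ratios of mean TPM in XY were 137 and 22.8, over mESC means of 0.00360 and 0.0502 TPM. The ratio was 2.74 for Srf and 2.20 for Tagln2. Srf was 2.63, 6.67 and 3.35 TPM in XX mESC, 4.61, 3.30 and 6.03 TPM in XY mESC, and 4.2 to 5.75 TPM in the mutants. In EpiLC it was 6.75, 7.69 and 8.23 TPM in XX, 11.5, 13.6 and 13.1 TPM in XY, and 10.4, 15.7 and 6.70 TPM in mutants #1, #3 and #4. On TPM the XY EpiLC libraries were the highest of the wild types, the opposite of Tagln. The differences were 0.79 ± 0.28, 1.31 ± 0.28 and 0.99 ± 0.27, and after scaling 0.59 ± 0.15, 0.65 ± 0.15 and 1.11 ± 0.14, in XX, XY and Tet3-/-.

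**Figure D2:**
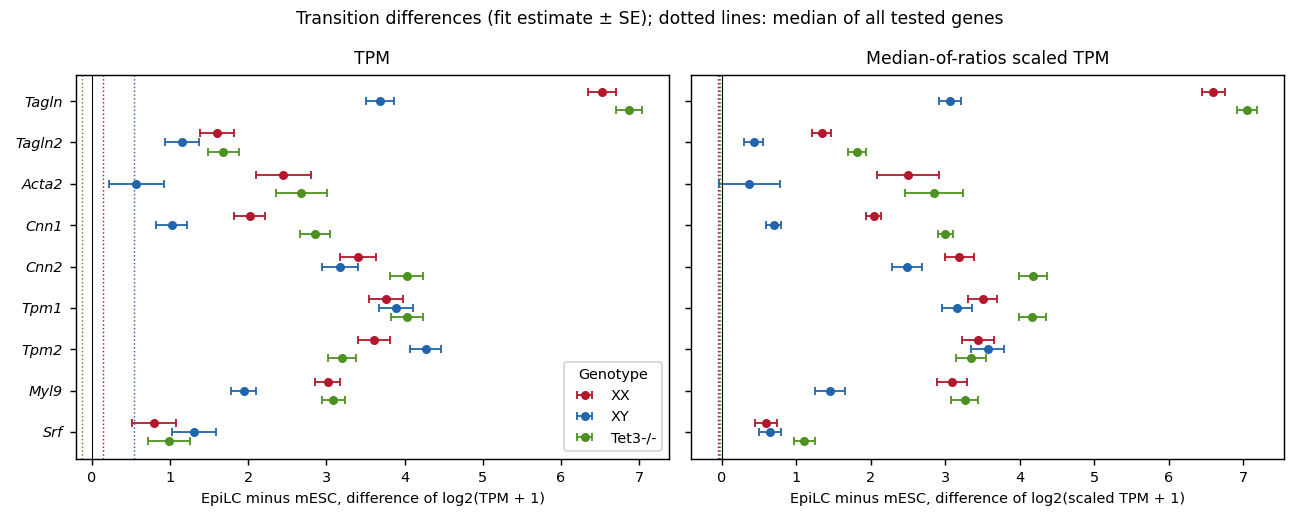
Difference between EpiLC and mESC for the 9 genes that passed the filter, as log2(TPM + 1) on the left and after median-of-ratios scaling on the right. Points are fit estimates with SE for XX, XY and Tet3-/-, and dotted lines are medians over all 14972 tested genes. For Tagln the XY point lies at 3.69 and the XX and Tet3-/- points at 6.53 and 6.87, while the 3 points of Tpm1 lie between 3.76 and 4.03.

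Tpm1 transcripts differed between the states in which start they used. Tpm1 (chromosome 9, 67022590 to 67049406, minus strand) makes long tropomyosins from an upstream start and short ones from an internal start, and the long form carries either exon 2a, typical of smooth muscle, or exon 2b. In the annotation 10 coding transcripts began at the upstream start (coding length 843 to 978 bases) and 6 at the internal one (735 to 753 bases). Of the TPM in these transcripts, the upstream start held 31.3% to 50.6% in XX mESC, 26.4% to 31.9% in XY mESC and 28.6% to 36.97% in Tet3-/- mESC. In EpiLC it held 96.9% to 97.7%, 89.5% to 90.5% and 95.8% to 98.2%, so the states did not overlap. Internal-start transcripts overlapped between the states in XX (17.1 to 26.6 TPM in mESC and 11.4 to 18.1 TPM in EpiLC) and in Tet3-/- (20.4 to 25.1 and 12.0 to 24.7 TPM). In XY they were higher in EpiLC without overlap (12.3 to 17.0 and 26.4 to 35.5 TPM). Upstream-start transcripts were at 12.1 to 23.0 TPM in XX mESC and 490 to 571 TPM in XX EpiLC.

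Exon 2a (chromosome 9, 67048124 to 67048249) was in 3 of the upstream-start transcripts and exon 2b (67047786 to 67047911) in 7. Exon 2a transcripts made up 22.8%, 21.9% and 23.5% of upstream-start TPM in XX EpiLC, 6.08%, 5.10% and 5.56% in XY EpiLC, and 14.6%, 4.50% and 11.5% in mutants #1, #3 and #4. All XX libraries were above all mutants, and mutant #3, which has the high mesoderm markers, was at the level of XY. In mESC the share was at most 4.79%, and it was 0 in all XY libraries. These shares are a description: the transcripts overlap in most of their length, and how their reads were divided cannot be checked in a TPM table.

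**Figure D3:**
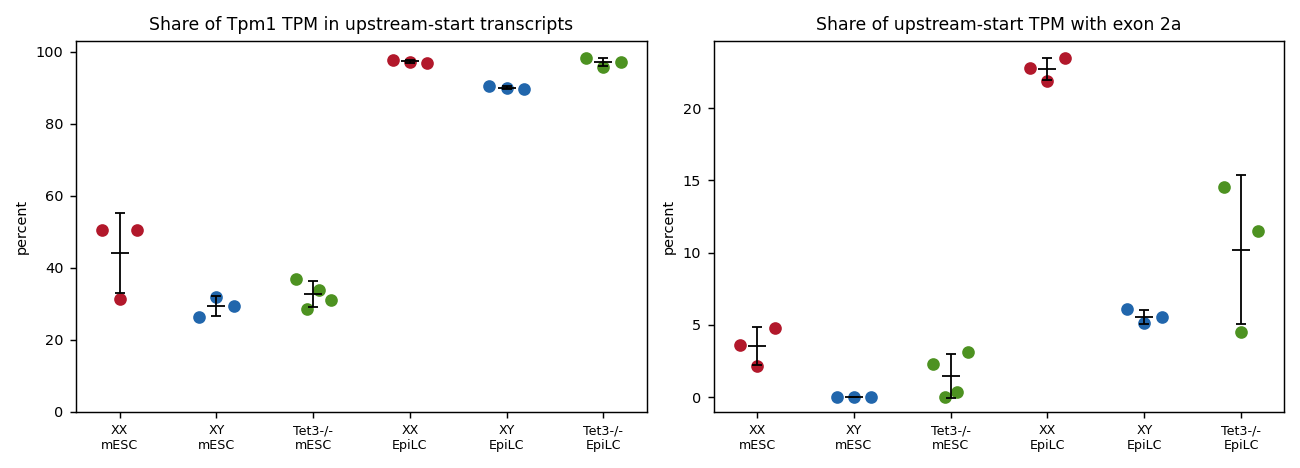
Left: share of upstream-start transcripts in the summed TPM of the upstream-start and internal-start coding transcripts of Tpm1. Right: share of upstream-start TPM in transcripts with exon 2a. Both are in percent, by group. Points are libraries and bars are means ± SD. The upstream share lies above 89% in all EpiLC libraries, and the exon 2a share separates XX EpiLC (21.9% to 23.5%) from XY EpiLC (5.10% to 6.08%).

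XX EpiLC had more RNA than XY EpiLC for most of the contractile genes. Tagln was picked on its EpiLC level, and Acta2 and Cnn1 passed the filter through XX and Tet3-/- EpiLC (0 and 1 of the XY EpiLC libraries reached 1 TPM), so these 3 are described with no test. Of the other 6 genes, 4 were called higher in XX and 0 lower (limma, adjusted p under 0.05), where 5.23% of all tested genes were called higher and 42% lower, or 47.2% in either direction. After scaling, 5 were called higher and 0 lower, against 17.9% and 15.1% of all genes. Cnn2 differed by 1.5 ± 0.23 (adjusted p 7.77e-05) and Tagln2 by 1.48 ± 0.22 (adjusted p 5.78e-05). Myl9 differed by 1.04 ± 0.16 (adjusted p 9.55e-05) and Tpm1 by 0.80 ± 0.22 (adjusted p 0.00775). In each of these 4 genes all 3 XX libraries were above all 3 XY libraries, a separation in that direction seen in 9.91% of all genes. Tpm2 differed by 0.08 ± 0.20 (adjusted p 0.751), but by 0.81 ± 0.22 after scaling (adjusted p 0.00899). Srf was -0.68 ± 0.28 (adjusted p 0.0561) on TPM, with every XX library below every XY library, and 0 ± 0.15 (adjusted p 0.994) after scaling. It was called lower in XX on TPM when only the groups compared entered the fit (adjusted p 0.00182) and with a block for the replicate number (adjusted p 0.0432). Among the genes given without a test, Tagln had a difference of 2.82 ± 0.18 and a ratio of mean TPM of 7.57 (12.7 after scaling). Acta2 had a smaller difference on the log2(TPM + 1) scale, 1.88 ± 0.35, but a larger ratio, 9.14 (15.6 after scaling), between means of 4.51 and 0.493 TPM. Cnn1 had a difference of 0.99 ± 0.20.

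Values of other genes moved with this comparison. Summed formative markers (Fgf5, Dnmt3b, Otx2, Pou3f1, Sox3; all 5 above 1 TPM on average in both groups) were at 39.9 to 47.3 TPM in XX and 256 to 325 TPM in XY EpiLC, and summed naive markers at 40.9 to 46.8 and 8.98 to 9.86 TPM (6 of 6 above 1 TPM on average in XX and 2 of 6 in XY). Their part in the differences of the contractile genes was not tested.

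In mESC, 4 of the 5 genes with at least 1 TPM in some mESC libraries were higher in XX as well, and Srf was not. Of the 9 genes, 4 were called higher and 0 lower in XX (6.43% and 7.73% of all genes, 14.2% in either direction), and the same 4 after scaling (30.8% of all genes in either direction). Cnn2 differed by 1.27 ± 0.23 (limma adjusted p 0.000821), Tagln2 by 1.03 ± 0.22 (adjusted p 0.00331), Tpm1 by 0.93 ± 0.22 (adjusted p 0.0064) and Tpm2 by 0.74 ± 0.20 (adjusted p 0.0159). The libraries of XX and XY did not overlap for any of these 4, a separation in that direction seen in 9.52% of all genes. Tagln, Acta2, Cnn1 and Myl9 were all near 0 in both groups, so a difference among them was not detectable at these levels. Srf gave -0.16 ± 0.28 (adjusted p 0.747). With the spread estimated from these 6 libraries alone, only Cnn2 passed (adjusted p 0.0306, against 0.0955 to 0.142 for the others), and Tpm2 also fell short without XX library 3 (adjusted p 0.104) or XY library 1 (adjusted p 0.0814).

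**Figure D4:**
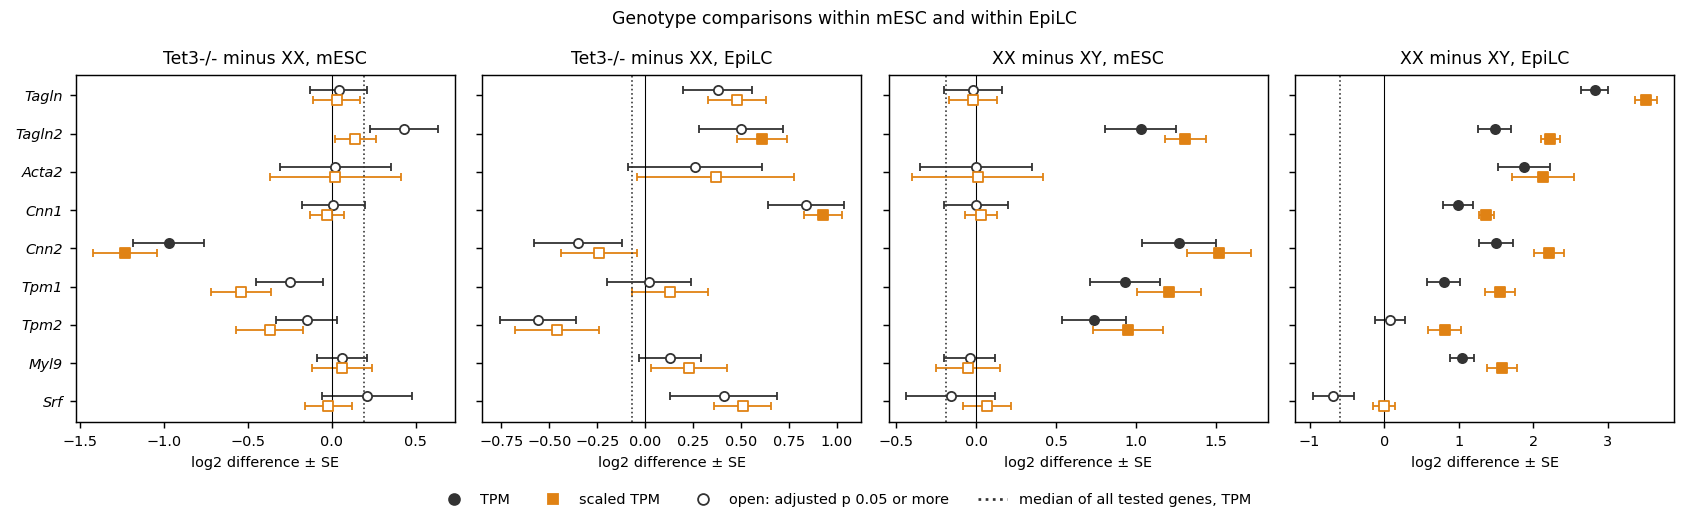
Genotype differences within each culture state for the 9 tested genes, on log2(TPM + 1) (dark circles) and after scaling (orange squares), with SE; filled symbols have a limma adjusted p under 0.05 and the horizontal axes differ between panels. In XX minus XY EpiLC the dark circles of all genes but Srf lie right of 0, while the median of all genes (dotted) lies at -0.59; Tagln, Acta2 and Cnn1 are description there.

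The step from mESC to EpiLC was called as larger in XX than in XY for 1 of the same 6 genes, Myl9 (1.08 ± 0.23, limma adjusted p 0.00293), and as larger in XY for 0. Over all genes 3.61% were called with a larger step in XX and 12.4% in XY (16% in either direction). After scaling Tagln2 was called too (0.91 ± 0.18, adjusted p 0.00134), which made 2 of 6 against 23.5% of all genes. Cnn2 (0.23), Tpm1 (-0.13), Tpm2 (-0.66) and Srf (-0.52) did not pass, with adjusted p from 0.122 to 0.8. With a pseudocount of 0.1, however, Tpm2 was called with a larger step in XY (-1.16, adjusted p 0.0458). For the 3 genes given without a test the difference of steps was 2.85 for Tagln, 1.88 ± 0.49 for Acta2 and 0.99 ± 0.28 for Cnn1. These and Myl9 were near 0 in mESC of both lines, so their values nearly equal those between XX and XY EpiLC. This comparison uses the same libraries as the ones within each state and is not separate evidence.

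Loss of Tet3 left most of these genes without a called difference from XX. In mESC 1 of 9 genes was called, against 0.601% of all genes: Cnn2 was lower in Tet3-/- by 0.97 log2 units (-0.97 ± 0.21, limma adjusted p 0.0453), where 0.107% of all genes were called lower. After scaling it gave -1.23 (adjusted p 0.00184), where 3.27% of all genes were called and 1.69% called lower. Its 4 mutant libraries lay at 1.15 to 2.02 TPM and the 3 XX libraries at 3.36 to 5.55 TPM, with no overlap (0.982% of all genes were separated that way). That call was lost when any library other than XX 2 was left out (adjusted p up to 0.203, values from -1.11 to -0.82). Tagln2 gave 0.43 ± 0.20 (adjusted p 0.558) in mESC, with every mutant above every XX library on TPM but not after scaling. The other 7 tested genes lay between -0.25 and 0.21, with adjusted p from 0.773 to 0.993.

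In EpiLC, where Tagln is again given without a test, 0 of the other 8 genes were called for Tet3-/- minus XX on TPM, against 1.08% of all genes. An unadjusted p under 0.05 in limma was reached by 3 of the 8 and by 1439 of all 14972 genes. After scaling 2 were called, both higher in Tet3-/-, against 5.43% of all genes in either direction and 2.2% higher: Cnn1 by 0.93 ± 0.10 (adjusted p 5.88e-05; 0.84 with adjusted p 0.0504 on TPM) and Tagln2 by 0.61 ± 0.13 (adjusted p 0.00871; 0.50 with adjusted p 0.442 on TPM). Without mutant #3, the library with the high mesoderm markers, 0 were called on TPM and 3 after scaling: Cnn1 (0.86, adjusted p 0.000188), Tagln2 (0.72, adjusted p 0.00384) and Myl9 (0.56, adjusted p 0.0153). Tagln gave 0.38 ± 0.18 on TPM and 0.48 ± 0.15 after scaling with all libraries, and 0.29 and 0.67 without mutant #3. Tpm2 was the one gene with every mutant below every XX library, at -0.56 ± 0.20 (adjusted p 0.259). Acta2 depended on mutant #1: its value was 0.26 ± 0.35 with it and -0.43 without it, neither of them called.

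The step itself was not called as different between Tet3-/- and XX for any of the 8 genes on TPM (0.174% of all genes were called). An unadjusted p under 0.05 in limma was reached by 1152 of all 14972 genes and by 1 of the 8. That gene was Cnn1, with a step larger in Tet3-/- by 0.83 ± 0.28 (adjusted p 0.398). After scaling it was called (0.96 ± 0.14, adjusted p 0.00408, against 0.628% of all genes), and also without mutant #3 in EpiLC (0.89, adjusted p 0.0041). Tagln had a difference of steps of 0.34, given without a test. The Tet3-/- and the XY comparisons share the XX libraries, so their values for a gene are not independent.

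The genes whose levels followed Tagln most closely were named by the highest Pearson r of log2(TPM + 1) over the 19 libraries, among 10341 genes with a mean of at least 5 TPM in some group. They were Myl9 (0.995), Wnt9a, a Wnt ligand (0.994), Tnfrsf12a, the receptor of the cytokine TWEAK (0.993), Snai3, a Snail-family transcription factor (0.989), and Coro2a, an actin-binding coronin (0.986). All 5 had their lowest EpiLC mean in XY: in EpiLC Wnt9a was 5.41, 1.53 and 5.09 TPM and Tnfrsf12a 52.4, 17.4 and 53.6 TPM in XX, XY and Tet3-/-. In mESC Tnfrsf12a was at 2.82 to 3.99 TPM on average and Wnt9a at 0.09 to 0.11 TPM. Among the members r was 0.968 for Tpm1, 0.967 for Cnn2, 0.966 for Cnn1, 0.917 for Acta2 and Tpm2, 0.831 for Tagln2 and 0.707 for Srf. These values are descriptive: all libraries fall into an mESC and an EpiLC cluster, and most of each r is the step between them.

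Other actin, contractile and adhesion genes known as SRF or MRTF targets were mostly higher in EpiLC too. Of 30 listed, 26 were tested, and 21 rose and 1 fell in XX, 17 rose and 1 fell in XY, and 20 rose and 1 fell in Tet3-/- (limma, adjusted p under 0.05). Over all genes 19.2%, 41.1% and 13.6% were called higher and 12.2%, 9.36% and 21.5% lower in the 3 genotypes. After scaling the counts were 20 and 1, 13 and 3, and 22 and 1, against 23%, 24.5% and 23.7% of all genes called higher and 27%, 26.4% and 27.9% lower. The median log2 difference of the list was 1.70, 1.26 and 1.51, against 0.14, 0.54 and -0.13 over all tested genes. These counts and medians include genes such as Acta1 and Lmod1, which reached 1 TPM in no mESC library and passed the filter through EpiLC. For such genes a rise was favoured by the filter, so it is a description. Acta1, skeletal muscle alpha actin, rose most in XX (5.42) and in Tet3-/- (4.65), from 0.0412 to 43.8 TPM and from 0.0556 to 27.3 TPM. In XY it reached 2.79 TPM. Pdlim7, a cytoskeletal LIM protein, rose by 3.90, 3.21 and 3.86 in XX, XY and Tet3-/-. Fhl1, another LIM protein, rose by 3.85 in XX, 2.90 in Tet3-/- and 0.65 in XY, where it was not called after scaling (-0.02, adjusted p 0.964). In XY, Myh10, non-muscle myosin heavy chain IIB, rose most (3.51), and Des, the intermediate filament desmin, rose by 2.99. Tagln3, the third transgelin paralog and the fallen gene in each genotype, gave -0.95, -0.73 and -1.52.

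**Figure D5:**
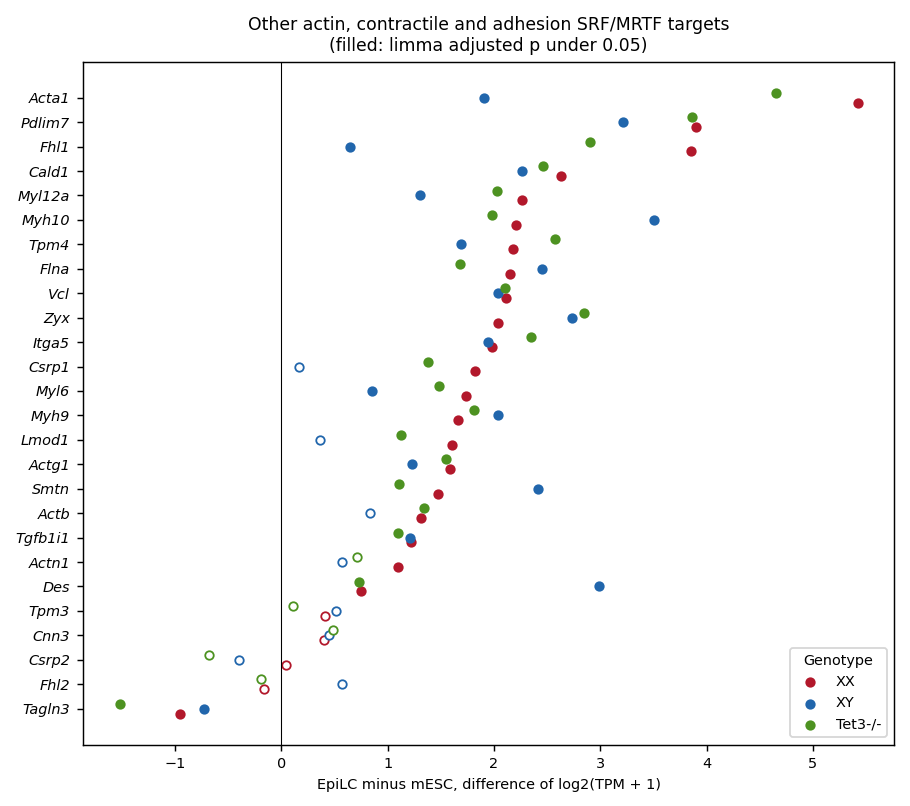
Difference between EpiLC and mESC in log2(TPM + 1) for the 26 tested genes of the list of other SRF or MRTF targets, in XX, XY and Tet3-/-. Filled points have a limma adjusted p under 0.05. Acta1 lies at 5.42 in XX and 1.91 in XY, and Tagln3 lies below 0 in all 3 genotypes.

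Between XX and XY EpiLC, 5 genes of that list were higher and 2 lower in XX on TPM, and 16 and 0 after scaling (17.9% and 15.1% of all genes), so this split depends on the scale. Acta1 was higher by 3.56 ± 0.22 (limma adjusted p 3.07e-09; 43.8 ± 4.25 against 2.79 ± 0.324 TPM, SD, n = 3), the largest value of the list on either scale. Csrp1, a LIM protein of the actin cytoskeleton, was higher by 1.12 (adjusted p 0.00725), and Fhl1 by 0.96 (adjusted p 0.00842). For Tet3-/- minus XX, 0 of the 26 were called in mESC or in EpiLC, on either scale.

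The lists that follow are small, and their counts stand beside the 19.2%, 41.1% and 13.6% of all genes called higher on TPM in XX, XY and Tet3-/- (23%, 24.5% and 23.7% after scaling). Some genes on them, such as Egr1 and Lefty1, were on average below 1 TPM in mESC of every genotype. They passed the filter only with EpiLC libraries, so their rises are a description. Of 6 partners of SRF, 5 were tested: 1 rose in XX (Elk4, 1.05), 3 rose (Mrtfb 0.91, Elk1 0.87, Mrtfa 0.83) and 1 fell (Elk3, -1.62) in XY, and none passed in Tet3-/-. After scaling 2, 2 and 1 rose and 0, 1 and 1 fell, and Mrtfb was not called in XY (0.34, adjusted p 0.145). Myocd was on average at most 0.121 TPM in any group and was not tested. Of the immediate early SRF targets, reached through the ternary complex partners, 4 of 7 were tested, and 2, 2 and 3 rose in XX, XY and Tet3-/- (3, 2 and 3 after scaling). Junb rose by 2.5, 1.93 and 2.44, and Fos by 1.1 in XX and 1.44 in Tet3-/-. In EpiLC both were higher in XX than in XY, Junb by 1.35 (limma adjusted p 0.00328) and Fos by 2.11. Fos is given without a test, since it passed the filter through XX and Tet3-/- libraries. It averaged 0.617 TPM in XY EpiLC and 0.349 TPM in XY mESC.
Targets shared with YAP and TEAD, which also respond to actin tension, rose in 4 of 4 tested genes in XX and XY and 3 of 4 in Tet3-/- (4 of 4 after scaling). The matricellular gene Ccn1 rose by 2.69, 3.61 and 2.96, and Ccn2 by 2.12, 3.57 and 1.92. Of 6 genes that respond to Activin or TGF-beta, 3 rose in XX, 3 rose and 1 fell in XY, and 4 rose and 1 fell in Tet3-/-. After scaling 5, 3 and 4 rose and 0, 1 and 1 fell. Lefty1, a Nodal inhibitor, rose by 4.00, 4.49 and 3.07.

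Markers of other cell types were mixed. Of the 5 smooth muscle markers, which summed to at most 34.7 TPM in EpiLC, Myh11 was on average at most 0.0673 TPM and Myocd at most 0.121 TPM in any group, while Des and Smtn were at 7.67 to 19.5 TPM in EpiLC and Lmod1 at 0.391 to 2.43 TPM. In mESC Des was at 11.5 TPM in XX and 8.59 TPM in Tet3-/- but 0.717 TPM in XY. The 7 cardiac and skeletal muscle markers together were at most 2.90 TPM in any library. The 9 fibroblast markers together were at most 2.76 TPM in any mESC library. They were 4.07 to 5.41 TPM in XX EpiLC, 10.3 to 10.7 TPM in XY EpiLC and 2.68 to 4.83 TPM in Tet3-/- EpiLC, with Thy1 the highest in each. Thy1 alone averaged 2.77, 8.36 and 0.819 TPM in XX, XY and Tet3-/- EpiLC, and no other marker of this list averaged 1 TPM there. The order of the sums is therefore mostly that of Thy1. Summed endoderm markers were 0.868 to 0.972 TPM in XX EpiLC, 5.79 to 6.10 TPM in XY EpiLC and 0.746 to 12.2 TPM in Tet3-/- EpiLC. Of the general pluripotency markers, Pou5f1 was on average 213, 394 and 217 TPM in XX, XY and Tet3-/- EpiLC. Sox2 was at 15.8, 3.18 and 7.02 TPM there, below its means of 73.0, 90.4 and 102.5 TPM in mESC.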

How the data were processed

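Gene expression was measured by stranded total RNA sequencing after ribosomal RNA depletion in 19 mouse libraries of 6 groups, per the labels' protocols. The authors deposited one table of TPM for 140948 transcripts, each column summing to 1000000. The submitters' processing notes name FastQC 0.11.7, Trimmomatic 0.35, Salmon 1.1.0 and GRCm38, with no role or order. Here TPM was summed per gene with GENCODE M21 (1096 transcripts matched no gene and held at most 0.215% of TPM). TPM keeps no depth, so precision rests on how far libraries of a group differ.

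A linear model with 6 group means was fitted to log2(TPM + 1) over the 19 libraries with limma 3.58.1 (R 4.3.3), for 14972 genes with at least 1 TPM in at least 3 libraries (lmFit, contrasts.fit, eBayes with trend). Benjamini-Hochberg adjustment ran over all tested genes, and adjusted p under 0.05 was called. A second fit used TPM divided by median-of-ratios factors over 18385 genes above 0 in every library. On simulated data for Tet3-/- minus XX in EpiLC (200 changed genes among 14972) the fit recovered 31% of changes of 1 log2 unit and 94.5% of changes of 2, with 3 and 7 false calls, and made 1 call with no change simulated.

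The members, gene lists, marker lists and tests were chosen with earlier results of these data known. Named list genes are called genes without overlap between groups and a mean of at least 5 TPM in the higher group, at most the 3 largest differences per list and comparison; Tagln3, Elk1, Elk3, Mrtfa and Mrtfb, and Acta1 and Fhl1 in XY, were named outside it, after their values were seen. Transcripts shown hold at least 5% of a gene's TPM in some group. RefSeq sequences are of GRCm38.p6. Figures and summaries used Python 3.11.15. The alternatives tried are given in the closing section. One further gene list is not reported here.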

Additional observations from a re-analysis of the deposited data

Results flagged for a closer look

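Of the differences between the XX and XY steps from mESC to EpiLC, 3 had an adjusted p under 0.05 in limma: Acta2 with 1.88 log2 units, Myl9 with 1.08 and Cnn1 with 0.99, each larger in XX. Acta2 and Cnn1 passed the filter on low values through XX and Tet3-/- EpiLC, the groups where they are high, so their values are a description. Myl9 had at least 1 TPM in all EpiLC libraries. All 3 genes were near 0 TPM in mESC of both lines, so each value restates the difference between XX and XY EpiLC. The Cnn1 call was lost without XX mESC library 3 (adjusted p 0.0533), XX EpiLC library 2 (0.0576) or XY EpiLC library 2 (0.0603). Line and sex chromosomes cannot be told apart in these values. Within the Tet3-/- mESC group, the only one with 4 libraries, no member had a library far from the others by Dixon's criterion.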

How the results depend on the processing

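The counts of called genes depended on the comparison. Here they cover all 9 tested genes (8 for the steps, without Tagln), including those given in the text without a test. XX minus XY in EpiLC gave 7 of 9, or 4 of 6 without Tagln, Acta2 and Cnn1. Of all genes 5.23% were called higher there and 47.2% in either direction. Every alternative run stayed within 1.5 times the count of 7, with 7 also when any library was left out. That steadiness is in part that of the genes given without a test. XX minus XY in mESC gave 4, but 1 with only the groups compared in the fit, 2 when a log2 difference of at least 1 was also required, and 3 to 4 with a library left out. The XX minus XY step gave 3, or 1 of 6 without Tagln, Acta2 and Cnn1, against 16% of all genes. The 3 became 1 with a filter of at least 5 TPM (Acta2 and Cnn1 were then not tested), 5 with quantile normalization, and 2 to 3 with a library left out. Tet3-/- minus XX in mESC gave 1 (Cnn2), but 0 with no filter, with a filter of at least 5 TPM, with only the groups compared, with the replicate block and with the log2 requirement, and 0 to 1 with a library left out. Tet3-/- minus XX in EpiLC gave 0, but 2 with median-of-ratios scaling, 2 with quantile normalization, 1 with coding transcripts only, and 0 to 1 with a library left out (1 without mutant #4, Cnn1 at 1.08, adjusted p 0.0124). Scaling without mutant #3, chosen after seeing the data, gave 4, among them Tagln, which is given in the text without a test. The Tet3-/- minus XX step gave 0, but 1 with scaling, 1 with quantile normalization, 1 with scaling without mutant #3, and 0 to 0 with a library left out. Where a filter or fewer libraries changed a count, fewer genes or samples entered the fit; for the others the cause was not tested.

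The main fit used no pairing by replicate number. The correlation of same-numbered deviations between states was 0.07, -0.05 and 0.03 in XX, 0.19, -0.04 and 0.24 in XY, and 0.27, 0.30 and -0.02 in Tet3-/-. For different numbers it ran from -0.12 to 0.06 in XX, -0.26 to 0.11 in XY and -0.34 to 0.28 in Tet3-/-. The labels carry the same mutant numbers in both states, and whether those libraries are paired was not settled. With the replicate block the Tet3-/- minus XX count in mESC was 0 (Cnn2 -0.92, adjusted p 0.082), and Srf was called in XX minus XY EpiLC (-0.68, adjusted p 0.0432); the block changed no other call.

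Reversed signs were all in values that were not called before or after. With scaling Tet3-/- minus XX in mESC was -0.03 for Cnn1 and -0.02 for Srf, Srf was 0.07 in XX minus XY mESC, and the XX minus XY step of Tpm1 was 0.34. Cnn1 was -0.04 with quantile normalization, and Tagln 0.02 in XX minus XY mESC with coding transcripts only. With a pseudocount of 0.1 Tpm2 was called in the XX minus XY step (-1.16, adjusted p 0.0458), Cnn1 was not (1.5, adjusted p 0.0788), the Tet3-/- minus XX step of Myl9 was -0.33 and the XX minus XY step of Cnn2 -0.21. With scaling without mutant #3 the Tet3-/- minus XX step of Tpm2 was 0.16. With a library left out, Tet3-/- minus XX in mESC ran from -0.02 to 0.05 for Cnn1 and from -0.01 to 0.53 for Srf. In EpiLC it ran from -0.43 to 0.65 for Acta2, -0.10 to 0.18 for Tpm1 and -0.09 to 0.27 for Myl9. Its step ran from -0.10 to 0.25 for Tagln2, -0.45 to 0.63 for Acta2, -0.15 to 0.21 for Myl9 and -0.12 to 0.48 for Srf. XX minus XY in mESC ran from -0.48 to 0.06 for Srf. No difference between culture states reversed. The pseudocount of 0.1, scaling, quantile normalization and coding transcripts only were tried on these differences of the tested members. Under them 38 values moved by more than the spread between libraries and 70 did not. With a library left out, all 171 values stayed within that spread. Depth is unknown, so genes near 0 TPM in mESC could not be compared there.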
